A study of Bos taurus with 18 samples.

Results

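The 4 rows of the plasma miRNA table described here are *bta-miR-192*, *bta-miR-215*, *bta-miR-194* and *bta-miR-194b*, chosen by name out of 1071 miRNAs and followed in all 18 libraries. Plasma was taken from 3 Japanese Black steers, fattened under the same feeding system, at about 20, 25 and 30 months. Each of the 9 plasma samples gave 1 exosomal (EX) library, made from RNA in small vesicles released by cells, and 1 non-exosomal free-circulating (FC) library, made from RNA outside such vesicles. A fraction at 1 age was thus covered by 3 libraries, 1 per steer, and the same steers were sampled at each age. No steer received a treatment in the comparison, so age stands together with everything else that changed during fattening.

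A miRNA is a short RNA that pairs with messenger RNAs, mainly through bases 2 to 8 of its 5′ end, called the seed, and lowers their output. *miR-192*, *miR-215* and *miR-194* are known as abundant miRNAs of the intestinal epithelium, the liver and the kidney. They are transcribed together from a pair of gene clusters and are induced by the tumour suppressor p53. Plasma holds miRNAs from many tissues, and the tissue that released a read is not recorded in these libraries.

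The mature sequences in the deposited table are printed 5′ to 3′ with the seed in capitals, because the first pair shares its seed and most of its bases and the second pair is antisense.
bta-miR-192: cUGACCUAugaauugacagccag
bta-miR-215: aUGACCUAugaauugacagaca
bta-miR-194: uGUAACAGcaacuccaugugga
bta-miR-194b: cACAUGGAguugcuguuaca

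*bta-miR-192* and *bta-miR-215* have the same seed, UGACCUA, which no other miRNA in the table has. Aligned from the 5′ end without gaps over 22 positions, they differ by 2 substitutions, C1A and C20A, with the base of *bta-miR-192* first and positions counted from 1 at its 5′ end. The identical run between these substitutions is 18 bases long. The seeds of *bta-miR-194* and *bta-miR-194b* occur in no other miRNA of the table.

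Despite its name, *bta-miR-194b* is not a close relative of *bta-miR-194* but its complement. In the reverse complement of *bta-miR-194* below, the 20 capital bases equal the whole of *bta-miR-194b*.
reverse complement of bta-miR-194: ucCACAUGGAGUUGCUGUUACA
The table held 23 pairs of miRNAs in which one lay within the reverse complement of the other, and this was 1 pair, the only one whose members both exceeded 100 CPM in some library. In the RefSeq gene table for ARS-UCD2.0, *MIR215* stands beside *MIR194-1* inside the span of *IARS2*, which encodes a mitochondrial isoleucyl-tRNA synthetase. *MIR192* stands beside *MIR194-2* inside the span of *EHD1*, which encodes an endocytic recycling protein. Each *miR-194* gene encloses a *miR-194b* gene, *MIR194B* in the first cluster and *MIR194B-2* in the second.

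The counts assigned to miRNAs ranged from 991354 to 2778618 per EX library and from 3615234 to 12088735 per FC library. The libraries at 30 months were the shallowest by median, with 1082798 counts in EX and 3803203 in FC. A floor of 3 counts was 1.08 to 3.03 CPM (a count divided by the library's total and scaled to a fixed sum) for EX and 0.248 to 0.83 CPM for FC. Floors and intervals cover counting error only, since reads copied from 1 molecule are not independent. CPM is a share of a library, so a higher CPM of a miRNA cannot be told apart from fewer reads of other miRNAs. The counts of *bta-miR-192* and *bta-miR-215* carried a fraction in the same 8 libraries and in no library singly, and how reads were divided between these similar sequences was not tested.

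The 4 rows together held 2.55% to 9.95% of the counts in EX and 4.26% to 17.6% in FC. Their share was highest at 30 months in both fractions. The EX libraries gave 4.78 ± 1.19%, 4.52 ± 1.74% and 9.05 ± 1.19% at 20, 25 and 30 months (mean ± SD, 3 libraries). The FC libraries gave 7.74 ± 0.698%, 8.55 ± 3.72% and 15.1 ± 2.46%. *bta-miR-192* made up most of the group, with 68.4% to 85.1% of its counts in EX and 67.1% to 74.8% in FC. The *bta-miR-194* row stood at 0 in 7 EX libraries and had counts in 2, those of steers 1 and 2 at 20 months. The *miR-194* rows held 9.32% and 11.7% of the group there, so the EX shares mix libraries with and without *bta-miR-194*.

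*bta-miR-192*, which targets messenger RNAs of the cell cycle and of epithelial differentiation, ranked between 2 and 11 among all miRNAs in every library. Its EX abundance was 40163, 36241 and 26234 CPM in the 20 months libraries of steers 1, 2 and 3, 39464, 46678 and 19911 CPM in those of 25 months and 63472, 84194 and 80843 CPM in those of 30 months. Its FC abundance was 55537, 60050 and 46632 CPM in the 20 months libraries, 75045, 75617 and 30131 CPM in those of 25 months and 92619, 123869 and 111051 CPM in those of 30 months. In both fractions all 3 libraries at 30 months lay above all 6 at the earlier ages.

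*bta-miR-215*, which shares the seed and therefore most predicted targets with *bta-miR-192*, ranked between 7 and 32. The EX libraries of 20 months had 13057, 7524 and 8583 CPM, those of 25 months 12501, 11020 and 5185 CPM and those of 30 months 13307, 15139 and 13983 CPM. The FC libraries of 20 months had 18164, 15090 and 16728 CPM, those of 25 months 24975, 19962 and 8747 CPM and those of 30 months 23875, 25987 and 23602 CPM. The 30 months libraries lay above all others in EX, but in FC steer 1 was higher at 25 months than at 30 months.

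*bta-miR-194*, whose seed and targets differ from those of the first pair, was abundant in every FC library, where it ranked between 7 and 41. These libraries had 6060, 7746 and 6180 CPM of it for steers 1, 2 and 3 at 20 months, 7837, 10494 and 3767 CPM at 25 months and 10799, 26514 and 13897 CPM at the last sampling. All 3 libraries at 30 months lay above the 6 earlier ones, and steer 2 at 30 months stood well above the rest.

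**Figure D1:**
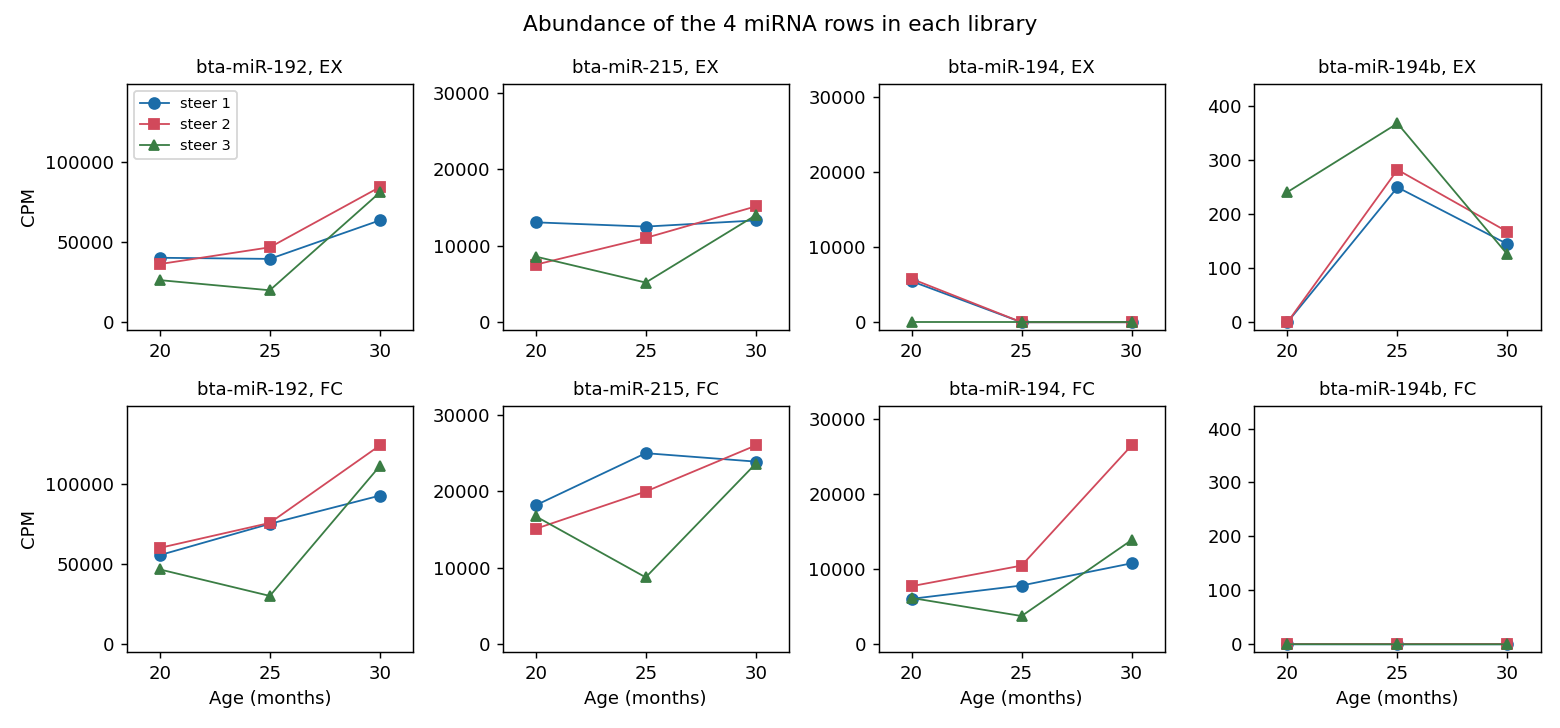
CPM of the 4 miRNA rows (columns) in EX (top) and FC (bottom) against age in months, with 1 line and symbol per steer; each column has 1 linear scale for both fractions. *bta-miR-192* has 63472 to 84194 CPM (EX) and 92619 to 123869 CPM (FC) at 30 months, above all earlier libraries, and *bta-miR-194* and *bta-miR-194b* take turns at 0 in EX.

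One plasma sample stood apart for these miRNAs in both fractions. Steer 3 at 25 months had the lowest CPM of 9 libraries for *bta-miR-192* and *bta-miR-215* in EX and in FC, and for *bta-miR-194* in FC. In the same libraries *bta-miR-150*, a lymphocyte miRNA, stood at 276263 CPM in EX and 194329 CPM in FC, its highest value in each fraction. TMM normalization, which scales libraries by their bulk of miRNAs, gave these libraries the lowest factors, 0.743 in EX and 0.734 in FC. The tested changes of the members within a fraction and the counts of the lists from 25 to 30 months are therefore given with and without them.

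The change with age was tested in each fraction by edgeR's quasi-likelihood test on counts with steer as a block, and FDR is the Benjamini-Hochberg adjusted p over all selected miRNAs, those with more than 5 CPM in 3 or more libraries out of 9. Of the 4 rows, 3 were selected in EX, without *bta-miR-194*, and 3 in FC, without *bta-miR-194b*. A difference passed at FDR below 0.05, and a DE-miRNA also had a log2 fold change beyond 1 in size. The study compared the ages on its way to candidate blood markers of carcass traits in live steers.

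In FC the log2 fold changes of the 3 members tested were all positive from 25 to 30 months, and *bta-miR-194* was the 1 DE-miRNA among them. Its log2 fold change was 1.11 (standard error 0.26, FDR 0.0261 by edgeR), and the CPM was higher at 30 months in 3 of 3 steers. By the same DE-miRNA rule 5.59% of the 358 miRNAs tested in FC were higher at 30 months. From 20 to 30 months it rose by a log2 fold change of 1.28 (standard error 0.26, FDR 0.03), where 2.79% of the miRNAs tested were higher.

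The call of *bta-miR-194* needed every steer. Leaving out steer 1, 2 or 3 gave log2 fold changes of 1.40, 1.04 and 0.96 from 25 to 30 months, with FDR 0.0667, 0.127 and 0.111 in edgeR. From 20 to 30 months the values were 1.38, 1.09 and 1.29, with FDR 0.109, 0.219 and 0.0677. Without steer as a block the values were 1.16 and 1.36, both at FDR 0.0636. With the count rows as deposited, where the lower part of 4 FC libraries is displaced, they were 1.07 and 1.25 at FDR 0.0654 and 0.0658. Without the library of steer 3 at 25 months the first was 0.94 (FDR 0.0652), and without that of steer 2 at 30 months the values were 0.97 and 1.11 (FDR 0.107 and 0.11).

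*bta-miR-192* missed the threshold in each of these comparisons. From 25 to 30 months its log2 fold change was 0.84 in FC (standard error 0.27, FDR 0.0593) and 0.73 in EX (standard error 0.30, FDR 0.145). Of the 345 miRNAs tested in EX 14.2% were DE-miRNAs in either direction and 3.77% were higher at 30 months, against 5.59% higher in FC. From 20 to 30 months *bta-miR-192* had 1.04 in FC (standard error 0.27, FDR 0.0536) and 0.84 in EX (standard error 0.30, FDR 0.104). In EX 13.3% were DE-miRNAs in either direction and 3.48% were higher at 30 months, against 2.79% higher in FC. The CPM of *bta-miR-192* was higher at 30 months in 3 of 3 steers in every one of these comparisons.

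The side of the threshold on which *bta-miR-192* fell depended on the tool and, for 30 against 20 months in FC, on 1 library. DESeq2 gave 0.81 in EX and 0.87 in FC from 25 to 30 months, at FDR 0.00505 and 0.0105. Without the library of steer 3 at 25 months edgeR gave 0.54 in EX (FDR 0.365) and 0.62 in FC (FDR 0.114) for this interval. The comparison of 30 with 20 months in FC then gave 1.00 (standard error 0.17, FDR 0.0149). The library left out enters that comparison only through the joint fit of all ages.

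*bta-miR-215* had the smallest change of the 3 abundant members. From 25 to 30 months its log2 fold change was 0.19 in EX (standard error 0.25, FDR 0.696) and 0.44 in FC (standard error 0.26, FDR 0.251). From 20 to 30 months it was 0.24 in EX (standard error 0.25, FDR 0.58) and 0.57 in FC (standard error 0.26, FDR 0.179). Without the library of steer 3 at 25 months the first pair became −0.03 in EX (FDR 0.964) and 0.19 in FC (FDR 0.537).

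These values depend on the scale in EX. The median log2 fold change of all 345 miRNAs from 25 to 30 months was −0.51 with TMM and −0.04 with library totals alone, and with the latter *bta-miR-192* stood at 1.19 and *bta-miR-215* at 0.65. Relative to that median, *bta-miR-192* lay 1.24 higher with TMM and 1.23 with library totals, and *bta-miR-215* 0.70 and 0.69. In FC the medians were −0.20 and −0.08, and *bta-miR-194* lay 1.31 and 1.29 above them.

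Between 20 and 25 months no member passed the test in either fraction. The log2 fold changes of *bta-miR-192* and *bta-miR-215* were 0.10 and 0.05 in EX, both at FDR 0.997 in edgeR, where 0.29% of the miRNAs were DE-miRNAs, and with library totals alone *bta-miR-215* turned to −0.06. In FC the values were 0.20 for *bta-miR-192*, 0.17 for *bta-miR-194* and 0.13 for *bta-miR-215*, each at FDR 0.999. *bta-miR-194b* in EX had a fitted value of 4.92 (standard error 2.69, FDR 0.997), which rests on 2 libraries at 0 at 20 months. No miRNA in FC passed between these ages in edgeR (0%), with 13 at an unadjusted p below 0.05, and 0 passed in DESeq2.

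**Figure D2:**
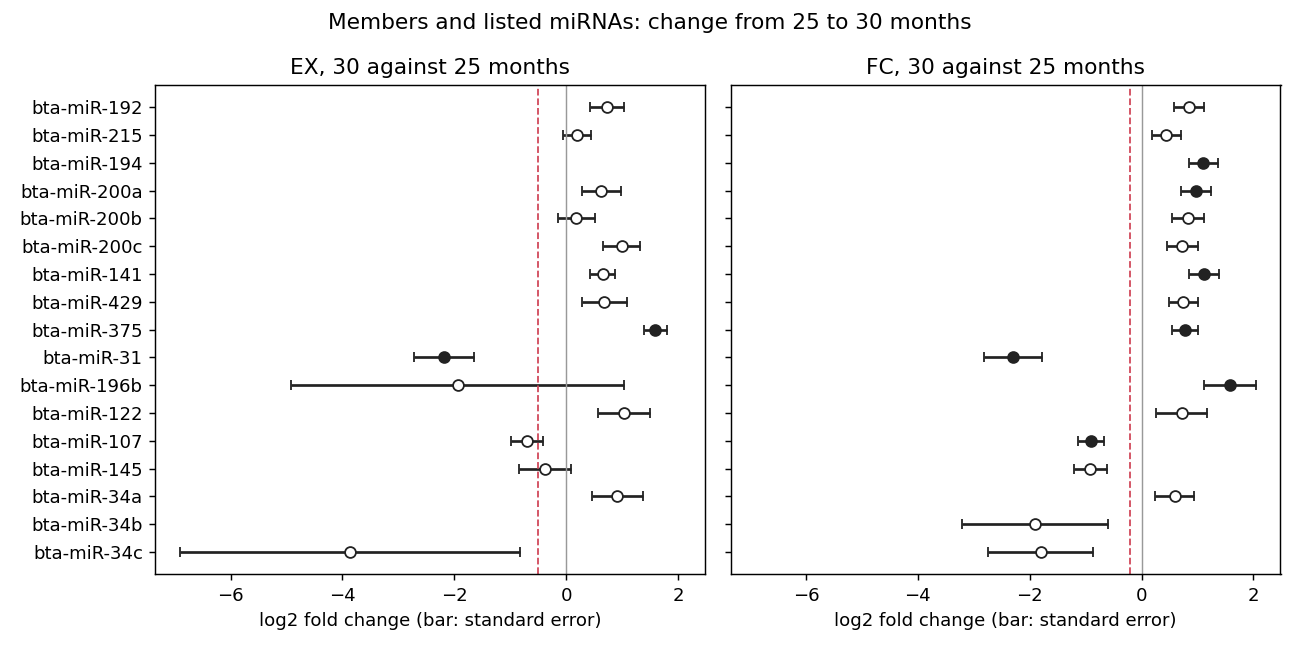
Log2 fold change from 25 to 30 months (x axis, bar for the standard error) in EX (left) and FC (right). Shown are the members, epithelial *miR-200a* to *miR-196b*, hepatocyte *miR-122* and the p53 list, each where it was tested. *bta-miR-194b* and *bta-miR-885*, whose folds rest on libraries at 0, are left out. Libraries at 0 also enter the folds shown for *bta-miR-196b* and *bta-miR-34c* in EX and for *bta-miR-34b* and *bta-miR-34c* in FC. Filled points have FDR below 0.05 and the dashed line is the median of all miRNAs tested, −0.51 in EX and −0.20 in FC. *bta-miR-194* is filled in FC at 1.11, and *bta-miR-192* and *bta-miR-215* are open in both fractions, and *bta-miR-31* is filled on the lower side in both, at −2.18 in EX and −2.30 in FC.

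The ratio of 2 members within a library needs no scaling between libraries. The EX ratio of *bta-miR-192* to *bta-miR-215* was 3.08, 4.82 and 3.06 in the 20 months libraries of steers 1, 2 and 3, 3.16, 4.24 and 3.84 in those of 25 months and 4.77, 5.56 and 5.78 in those of 30 months. The FC ratio was 3.06, 3.98 and 2.79 in the 20 months libraries, 3.00, 3.79 and 3.44 in those of 25 months and 3.88, 4.77 and 4.71 in those of 30 months. The shift toward *bta-miR-192* from 25 to 30 months appeared in 3 of 3 steers in each fraction.

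On the log2 scale this ratio was higher at 30 than at 25 months by 0.53 ± 0.12 in EX and by 0.38 ± 0.06 in FC (mean ± SD, 3 steers), which is 1.44-fold and 1.30-fold. The exact two-sided sign-flip test over the steers gave p = 0.25 in each fraction, the smallest p that 3 steers allow, so the test could not pass 0.05. With any 1 steer left out the mean ranged from 0.49 to 0.59 (EX) and from 0.35 to 0.41 (FC). Steer 3 at 25 months, whose CPM were lowest, had a ratio inside the range of the other 2 steers in both fractions.

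The ratios to *bta-miR-194* were followed in FC, where each library lists it. The ratio of *bta-miR-192* to *bta-miR-194* was 9.16, 7.75 and 7.55 in the 20 months libraries, 9.58, 7.21 and 7.998 in those of 25 months and 8.58, 4.67 and 7.99 in those of 30 months. Its mean log2 difference between 30 and 25 months was −0.26 ± 0.32, and most of it came from steer 2, without which it was −0.08. The log2 ratio of *bta-miR-215* to *bta-miR-194* was lower at 30 months in 3 of 3 steers, by −0.65 ± 0.27, with p = 0.25 in the exact sign-flip test, again the smallest possible.

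**Figure D3:**
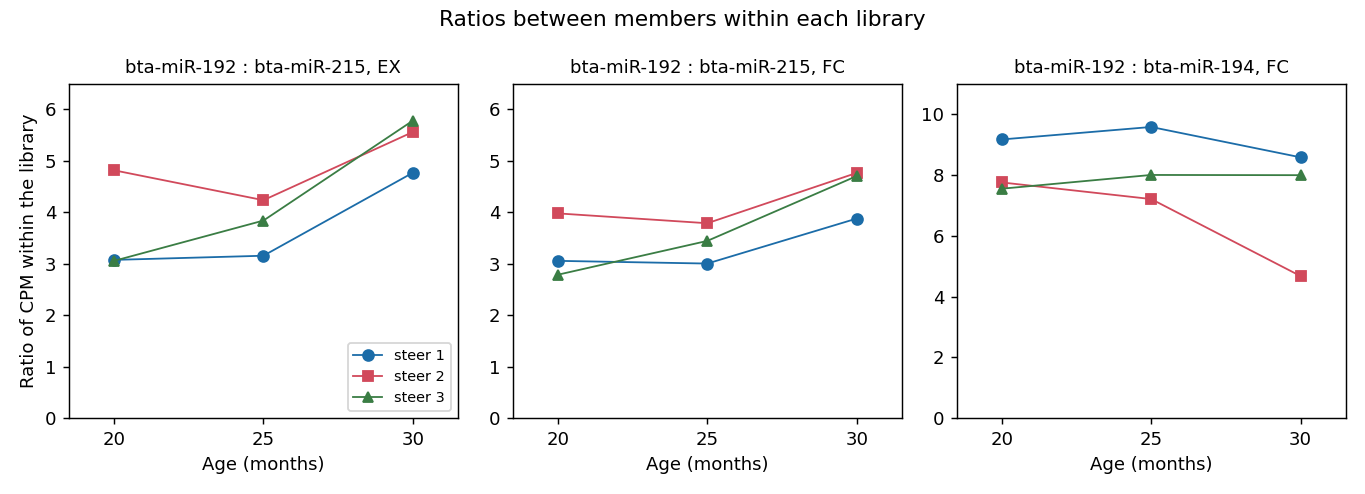
Ratio of CPM within each library against age in months, with 1 line and symbol per steer: *bta-miR-192* to *bta-miR-215* in EX (left) and FC (middle) and *bta-miR-192* to *bta-miR-194* in FC (right). The first ratio is 4.77 to 5.78 in EX and 3.88 to 4.77 in FC at 30 months, above its value at 25 months in each steer, and the last falls to 4.67 in steer 2 at 30 months.

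Both members of the shared-seed pair were lower in EX than in FC. The CPM of *bta-miR-192* in EX was 0.526 to 0.728 of that in FC of the same plasma (median 0.661) and that of *bta-miR-215* was 0.499 to 0.719 (median 0.557), below 1 in 9 of 9 plasma samples for each. Over the 3 ages the log2 difference of EX from FC was −0.75 for *bta-miR-192* (standard error 0.14, FDR 0.00188) and −0.94 for *bta-miR-215* (standard error 0.13, FDR 0.000119) in edgeR on 18 libraries. Of 330 miRNAs tested, 12.1% passed at any fold change and were lower in EX, and the median of all was −0.31. Without steer 2 the FDR of *bta-miR-192* was 0.056 at a log2 difference of −0.74.

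The ratio of *bta-miR-192* to *bta-miR-215* also differed by fraction. It was higher in EX than in FC in 9 of 9 plasma samples, with a mean log2 difference of 0.18 ± 0.05 over 3 steers and p = 0.25 in the exact sign-flip test. This comparison was added after the values were seen. The change from 25 to 30 months was not shown to differ between the fractions. The difference in log2 fold change, EX minus FC, was −0.01 for *bta-miR-192* (standard error 0.34, FDR 0.993) and −0.15 for *bta-miR-215* (standard error 0.30, FDR 0.859), while 7.58% of 330 miRNAs were called by both criteria, and library totals alone turned these values to 0.25 and 0.10. Without both libraries of steer 3 at 25 months they were 0.06 (FDR 0.982) and −0.10 (FDR 0.942).

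In EX the pair *bta-miR-194* and *bta-miR-194b* was listed in exclusion. *bta-miR-194* stood at 5472 and 5793 CPM in steers 1 and 2 at 20 months and at 0 in the other 7 libraries. *bta-miR-194b* stood at 0 in those 2 libraries and at 241 CPM in that of steer 3 of the same age. Its 25 months libraries had 250, 283 and 369 CPM, and those of 30 months 145, 168 and 126 CPM. No EX library had counts for both rows or for neither.

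In FC the antisense row was almost empty. *bta-miR-194b* stood at 0.041 and 0.161 CPM in steers 1 and 3 at 20 months, below the floor of 3 counts, and at 0 in the other 7 libraries. In the 7 plasma samples with 0 in EX, the FC level of *bta-miR-194* would have given 9182 to 26280 counts at the depth of the EX library. Against the floor of 3 counts per library, *bta-miR-194* was at least 3061-fold to 8761-fold higher in FC, and *bta-miR-194b* at least 159-fold to 1360-fold higher in EX.

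In the 2 EX libraries that list it, *bta-miR-194* resembled its FC level. It stood at 0.903 of the FC value in steer 1 and 0.748 in steer 2, and the ratio of *bta-miR-192* to *bta-miR-194* was 7.34 and 6.26. No other miRNA showed this listing above 100 CPM. Of 124 miRNAs above 100 CPM in all 9 FC libraries, only *bta-miR-194* and *bta-miR-339a* were at 0 in any EX library, in 7 and 1 of them. The same reverse strand of the locus is listed where the forward strand is missing, and how reads were assigned to the 2 strands was not tested.

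Because of this listing, the fitted changes of *bta-miR-194b* in EX are given for its row only, and whether they hold for the locus was not tested. From 25 to 30 months its log2 fold change was −1.16 (standard error 1.70, FDR 0.732 in edgeR), in a fit whose spread includes the libraries at 0, although the 3 values at 30 months lay below the 3 at 25 months. Without the EX library of steer 3 at 25 months it was −1.70 (standard error 1.75, FDR 0.601). With both *miR-194* rows summed, the difference between 30 and 20 months was −4.82 (FDR 0.0183), set by the 2 libraries that list *bta-miR-194*.

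The miRNAs whose profile over the 9 libraries was nearest to that of *bta-miR-192* belonged largely to the *miR-200* family, which keeps epithelial cells in their epithelial state. Likeness was the root mean square difference of log2 TMM-normalized CPM after centring each miRNA on its mean, among miRNAs with a mean of at least 100 CPM. In EX the nearest of 158 were *bta-miR-141* at 0.135, *bta-miR-152* at 0.226 and *bta-miR-429* at 0.239. In FC the nearest of 154 were *bta-miR-429* at 0.154, *bta-miR-200a* at 0.176 and *bta-miR-141* at 0.205. These distances are descriptions over libraries of 3 steers and share the scaling of each library.

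*bta-miR-215* and *bta-miR-194* were close to *bta-miR-192*, but not the closest. *bta-miR-194b*, at 0 in EX of steers 1 and 2 at 20 months, ranked 157 of 158 in EX (3.282). *bta-miR-215* ranked 12 in EX (0.341) and 9 in FC (0.261), and *bta-miR-194* ranked 10 in FC (0.283), where the median distance was 0.728 in EX and 0.725 in FC. For *bta-miR-194* the nearest in FC were *bta-miR-200b* (0.188), *bta-miR-141* (0.195) and *bta-miR-200c* (0.217). For *bta-miR-215* the nearest were *bta-miR-27a-3p*, *bta-miR-27b* and *bta-miR-24-3p* in EX, and *bta-miR-429*, *bta-miR-27a-3p* and *bta-miR-7* in FC.

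The hepatocyte miRNA *bta-miR-122* lay near the median distance from *bta-miR-192*, at rank 91 of 158 in EX (0.775 against 0.728) and rank 103 of 154 in FC (0.839 against 0.725). From *bta-miR-215* it ranked 120 in EX (0.987, median 0.629) and 127 in FC (0.914, median 0.582). From *bta-miR-194* in FC it ranked 70 (0.828), below the median of 0.877. The log2 ratio of *bta-miR-192* to *bta-miR-122* differed between 30 and 25 months by −0.29 ± 0.66 in EX, higher in 1 of 3 steers, and by 0.22 ± 0.63 in FC, higher in 2 of 3 (mean ± SD, exact sign-flip p = 0.75 in each). Between 30 and 20 months it differed by 0.33 ± 0.61 in EX (2 of 3 steers higher, p = 0.75 in the exact test) and by 1.11 ± 0.91 in FC (3 of 3 higher, p = 0.25, the smallest possible), where steer 3 had 0.06. *bta-miR-122* differed widely between steers, with 95221 CPM in EX of steer 2 at 20 months against 22939 and 31004 CPM in steers 1 and 3, while *bta-miR-192* of the same libraries stood at 36241, 40163 and 26234 CPM. The tissue of origin was not tested.

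**Figure D4:**
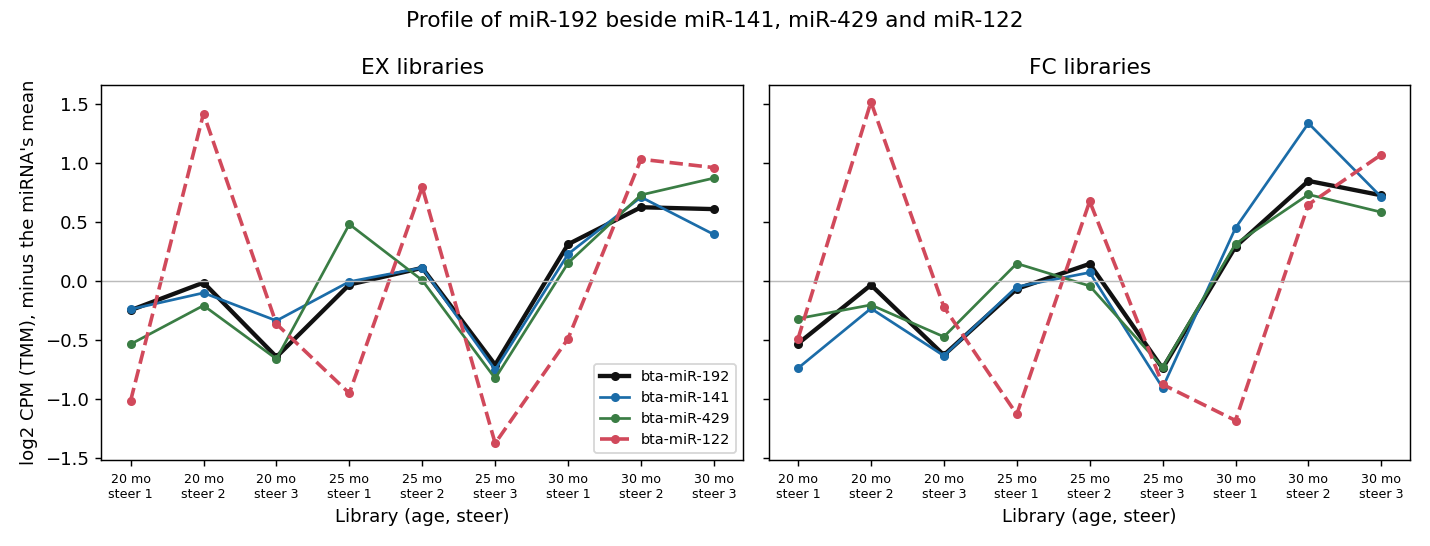
Log2 TMM-normalized CPM minus the mean of each miRNA (y axis) over the 9 EX libraries (left) and 9 FC libraries (right), ordered by age and steer. *bta-miR-192* (black) runs beside *bta-miR-141* and *bta-miR-429*, at distances of 0.135 and 0.239 in EX and 0.205 and 0.154 in FC, and *bta-miR-122* (dashed) lies at 0.775 and 0.839, where the medians are 0.728 and 0.725.

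Among the 8 listed epithelial miRNAs, 4 rose and 1 fell from 25 to 30 months in FC by edgeR, where 6.98% of all miRNAs passed upward and 11.7% downward. Their median log2 fold change was 0.81, against −0.20 for all. *bta-miR-141* rose by 1.11 (FDR 0.0275), *bta-miR-200a* by 0.97 (FDR 0.0353), *bta-miR-196b* by 1.58 (FDR 0.044) and *bta-miR-375*, a miRNA of endocrine and gut epithelium, by 0.78 (FDR 0.0489). *bta-miR-31*, an epithelial miRNA of skin and gut, fell by 2.30 (FDR 0.0254). Without the library of steer 3 at 25 months 0 rose and 1 fell, with a median of 0.62, and with library totals alone 1 rose.

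In EX 1 of the 8 rose and 1 fell, where 4.06% and 10.7% of all miRNAs passed, and their median was 0.64 against −0.51. *bta-miR-375* rose by 1.60 (FDR 0.00295) and *bta-miR-31* fell by 2.18 (FDR 0.0299), and without steer 3 at 25 months 1 rose and 0 fell, with a median of 0.34. With library totals alone 3 rose and 0 fell, and with median-of-ratios size factors 3 rose and 1 fell. From 20 to 30 months 2 rose in FC, *bta-miR-141* by 1.38 and *bta-miR-200a* by 1.35 (both FDR 0.027), and 1 rose in EX, *bta-miR-375* by 1.16 (FDR 0.0108), where 3.07% and 3.77% of all miRNAs passed upward. In FC 6 rose and 1 fell between these ages without the library of steer 3 at 25 months. The shares above belong to the fit of all 9 libraries, so this count has no share of all miRNAs beside it.

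Of the hepatocyte list, *bta-miR-122* had log2 fold changes from 25 to 30 months of 1.04 in EX (FDR 0.166) and 0.72 in FC (FDR 0.287). In EX its CPM at 30 months was 1.749, 1.488 and 8.218 times that at 25 months in steers 1, 2 and 3. In FC it was 0.9287, 0.9875 and 5.142 times, so only steer 3 was higher. *bta-miR-885* fell in FC by edgeR. It stood there at 21.2, 19.8 and 25.9 CPM at 25 months and at 0, 0 and 0.526 CPM at 30 months, and in EX it went from 27.5, 75.1 and 49.6 CPM to 0, 0 and 70.2 CPM. With steer 3 at 25 months left out, 0 of the 2 hepatocyte miRNAs passed in EX and 1 fell in FC. The list median then went from −1.26 to −2.99 in EX and from −3.21 to −3.24 in FC. The p53-induced list held 4 tested miRNAs in EX, of which 0 passed in edgeR and 1 had an unadjusted p below 0.05, with a median of −0.54, and 5 in FC, of which 1 fell, with a median of −0.91, where 11.7% of all miRNAs passed downward. With library totals alone 0 of the 5 passed in FC, and without steer 3 at 25 months 1 fell in FC and 0 in EX. *bta-miR-107* fell by 0.90 (FDR 0.0298), and *bta-miR-34a*, the best known p53 target among miRNAs, stood at 0.60 (FDR 0.243). The list medians include low rows with libraries at 0. In FC the mean went from 4.59 to 2.19 CPM for *bta-miR-34b* and from 24.5 to 10.6 CPM for *bta-miR-34c*. In EX *bta-miR-34c* had a median of 0 CPM at 30 months.

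Of the blood-cell lists, only the lymphocyte pair passed in full from 25 to 30 months in the same libraries. Both lymphocyte miRNAs, *bta-miR-150* and *bta-miR-342*, fell from 25 to 30 months in each fraction, where 10.7% (EX) and 11.7% (FC) of all miRNAs passed downward. Their summed level in EX was 113415 to 324692 CPM at 25 months and 13723 to 27464 CPM at 30 months, and in FC it was 80690 to 230827 CPM and 14651 to 26926 CPM. Of 3 red-cell miRNAs 1 fell in EX, *bta-miR-451*, which stood at −1.68 in FC (FDR 0.0516), and their summed level was 28558 to 92244 CPM and then 34776 to 54074 CPM in EX, and 18948 to 46802 CPM and then 21521 to 34381 CPM in FC. The log2 ratio of *bta-miR-451* to *bta-miR-23a*, which follows red-cell RNA, was lower at 30 than at 25 months in 3 of 3 steers, by −1.44 ± 0.52 in EX and −1.001 ± 0.101 in FC. Against 20 months it differed by −1.05 ± 1.01 in EX and −0.57 ± 1.70 in FC, and steer 1 was higher at 30 months in both, by 0.11 and 1.39. *bta-miR-486*, also a red-cell miRNA, missed the threshold, with a log2 fold change of −0.04 in EX (FDR 0.976) and 0.41 in FC (FDR 0.552), while its mean went from 29453 to 38561 CPM in EX and from 16354 to 23000 CPM in FC. With library totals alone 0 of the 3 red-cell miRNAs passed in EX. Of 5 leukocyte and platelet miRNAs 2 fell in EX and 1 in FC, and with library totals alone 2 fell in FC. Without steer 3 at 25 months the counts of the 3 blood-cell lists were the same in both fractions, and the median of the lymphocyte list went from −3.19 to −2.62 in EX and from −2.59 to −1.72 in FC. No blood-cell marker was at 0 throughout a group, and the part of these changes in the CPM of the members was not tested.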

How the data were processed

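Small RNA of 18 plasma libraries (9 EX, 9 FC) was sequenced. The authors trimmed the reads with cutadapt 5.0 and Trimmomatic 0.39 and checked them with FastQC 0.12.1, mapped them to a Japanese Black genome built on ARS-UCD1.2, and assigned them to mature miRNAs of miRBase with miRDeep2. They deposited estimated counts per miRNA, not whole where reads are shared, and CPM values from edgeR 4.0.16, another table with a total row.

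In 4 FC libraries the lower count rows stood 1 row away from the CPM table. Such counts were recomputed from CPM, and no member was affected. Rounded counts of miRNAs with CPM > 5 in 3 or more of the 9 libraries per fraction were scaled by TMM and fitted in edgeR 4.0.16 (R 4.3.3, limma 3.58.1) by the quasi-likelihood F test with age and steer. The fit of EX against FC used 330 miRNAs selected in both. A standard error is |log2 fold change| over the root of F. DESeq2 1.42.0 was an alternative. Other work used Python 3.11.15, numpy 2.4.6, pandas 2.3.3, scipy 1.17.1 and matplotlib 3.10.9. Scripts were tested on simulated data.

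Replicate numbers mark the same 3 steers at each age, per the study's sample list. The correlation of deviations from group means between libraries of 1 steer was −0.048 to 0.102 in EX and 0.000 to 0.263 in FC. No 2 libraries of a group were copies.

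Named miRNAs are the 4 rows, lists for hepatocyte, epithelium, p53 and blood cells, and per fraction the 3 nearest in profile. The members and lists were chosen with earlier results of these data known. RefSeq names come from another assembly, so no coordinates are given. Read mapping, qPCR and carcass records were not used here.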

Additional observations from a re-analysis of the deposited data

Results flagged for a closer look

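One named miRNA differed between the fractions in its change from 25 to 30 months. *bta-miR-375*, which is no member, had a log2 fold change larger in EX than in FC by 0.91 (standard error 0.25, FDR 0.044 in edgeR over 330 miRNAs, of which 1.21% passed in this direction). Without both 25 months libraries of steer 3 it was 0.98 (standard error 0.26, FDR 0.0591). Its CPM went from 1564, 956 and 881 to 4812, 3726 and 5376 in EX of steers 1, 2 and 3, and from 2161, 1338 and 1078 to 2773, 2128 and 3453 in FC. The fit had steer and not plasma sample as block, and the value of *bta-miR-375* with plasma sample as block is not given here. Groups of 3 libraries are too small for the check of single samples far from their group.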

How the results depend on the processing

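Among the age comparisons *bta-miR-194* in FC was the 1 member called, and it fell short of FDR 0.05 without steer as a block (1.16 from 25 to 30 months and 1.36 from 20 to 30 months), with count rows as deposited (1.07 and 1.25), and without any 1 steer, without FC of steer 2 at 30 months and, for 25 to 30 months, without FC of steer 3 at 25 months. Those left-out values were 0.94 to 1.40 and 1.09 to 1.38. *bta-miR-192* passed with DESeq2 (EX 0.81 and 0.93, FC 0.87 and 1.06, in the same order), with the likelihood ratio test from 20 to 30 months (EX 0.84, FC 1.04) and in FC from 25 to 30 months (0.84), and its left-out range in FC from 20 to 30 months was 0.86 to 1.10. Its EX against FC difference was −0.80 to −0.71 with 1 steer left out and missed the threshold without steer 2. The block changed no other call of a member. The single libraries left out, steer 3 at 25 months and FC of steer 2 at 30 months, were chosen after seeing the data.

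Values near 0 changed sign. With library totals alone *bta-miR-215* from 20 to 25 months in EX was −0.06, and the EX minus FC difference in change was 0.25 for *bta-miR-192* and 0.10 for *bta-miR-215*. With left-out samples *bta-miR-215* in EX ranged from −0.06 to 0.34 (25 to 30 months) and −0.09 to 0.27 (20 to 25 months), and in FC from 20 to 25 months *bta-miR-192* ranged from −0.02 to 0.38, *bta-miR-215* from −0.14 to 0.36 and *bta-miR-194* from −0.03 to 0.34. The summed *miR-194* rows gave −4.82 and −3.14 in EX for 30 and 25 against 20 months.

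Counts of DE-miRNAs moved more. For 25 to 30 months EX had 49 (likelihood ratio test 90, DESeq2 85, left-out range 0 to 24) and FC 56 (rows as deposited 10, left-out range 1 to 54). For 20 to 30 months EX had 46 (library totals 28, likelihood ratio test 83, DESeq2 78, range 0 to 35) and FC 25 (likelihood ratio test 53, DESeq2 49, rows as deposited 2, no filter 52, range 1 to 33). For 20 to 25 months EX had 1 (DESeq2 3, no filter 2, range 0 to 1) and FC 0 (range 0 to 1). EX against FC gave 30 (likelihood ratio test 51, selection in either fraction 46, range 11 to 25), and the difference in change 25 (DESeq2 38, plasma sample as block 16, range 0 to 10). The causes were not tested. For these counts and the values of *bta-miR-192*, *bta-miR-215* and *bta-miR-194*, 275 alternative values kept their direction and side of the threshold, or stayed within 1.5 times the count, while 14 fell short of the threshold, 8 newly passed it, 10 changed sign and 38 counts moved further.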
